A study of Homo sapiens with 2 samples.

Results

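NRF2 targets and the glutathione, thioredoxin and pentose phosphate enzymes were followed in MDA-MB-231, an established line of human triple-negative breast carcinoma cells. They are 35 genes of 60774 identifiers in the deposited table, and all 35 were found through their GENCODE 29 symbols. The genes were chosen by name, with earlier results of these data known. The study holds 1 library whose label is OE-YWHAB, for over-expression of the gene of a phosphoserine-binding adaptor protein and 1 whose label is Vector Control. Both came from the same line in DMEM/F12 medium with serum, and the labels name no clone, vector or time of harvest. As neither group was repeated, no test was run, no p-value is given, and a difference between these libraries is not shown to be a difference between the conditions.

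NRF2, encoded by NFE2L2, is a transcription factor that binds the antioxidant response element together with small MAF proteins. KEAP1 holds it in the cytoplasm and directs its degradation until oxidants or electrophiles modify KEAP1, while BACH1 competes with it on DNA. Its targets make and recycle glutathione, feed the thioredoxin cycle, supply NADPH, detoxify quinones and carbonyls, and pump conjugates out of the cell. Breast and other carcinomas are known to use this programme against oxidative stress and drugs.

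The libraries held 13810668 fragments (YWHAB) and 12375999 fragments (vector), worked out from the steps of the FPKM values (fragments per kilobase, scaled to the size of the library). YWHAB itself was at 336 FPKM in the YWHAB library, against 239 FPKM in the vector library, a ratio of 1.41. That was short of 2-fold, and 8.01% of all genes compared (mean of at least 1 FPKM) were as high in their difference. The mesenchymal markers of the line were present, with VIM at 861 FPKM in the YWHAB library and 736 FPKM in the vector library. Of 8 luminal markers 4 were compared, and the list summed to 607 FPKM in the YWHAB library and 498 FPKM in the vector library, most of it KRT19 at 551 FPKM (YWHAB) and 460 FPKM (vector). ERBB2 was also expressed, with 1499 fragments in the YWHAB library and 883 in the vector library, an FPKM ratio of 1.52. GATA3 had 89 fragments (YWHAB) and 65 (vector), and EPCAM had 24 (YWHAB) and 17 (vector). ESR1, PGR, FOXA1 and CDH1 had at most 7 fragments in either library. The labels' protocol text, identical for both samples, speaks of fat cell induction and of retinas, and was not taken as a fact about these cells. Of 8 fat cell markers ADIPOQ and LEP were listed at 0 in both libraries and only PPARG and LPL were high enough to compare, with a sum over the list of 21.5 FPKM in the YWHAB library and 29.7 FPKM in the vector library. Of 8 retina markers none had over 3 fragments.

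The letters of the antioxidant response element were first sought in the promoters of the members, because this element is what the list is named for. RefSeq promoter windows (GRCh38.p14, from 250 bases before to 50 after a start site) were on hand for 28 members, some with several start sites. TGACNNNGC was read on both strands and occurred in at least 1 window of 14 of the 28 members, against 1867 of 9496 compared genes with a window (19.7%). Counted by window, it was in 15 of 41 member windows (36.6%) and in 13.3% of all 35116 windows. The full 9-letter form TGACTCAGC, which is also 1 case of the broader pattern, was in the windows of GSTP1, ME1 and PIR, and in 0.561% of all windows. A match describes letters only, and a window without one says nothing on binding elsewhere.

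The following stretches show 1 match each in members that differ in role and in their values, with the matched letters in capitals, each read 5′ to 3′ along the strand of its gene. GSTP1, GCLM and PIR are cut to the site because annotated exons cover it. GSTP1 lies at chr11:67583736-67583764, plus strand, ME1 at chr6:83431140-83431228, minus strand, PIR at chrX:15493289-15493317, minus strand, GCLM at chr1:93909446-93909474, minus strand, TXNRD1 at chr12:104215640-104215728, plus strand, GSTO1 at chr10:104254642-104254709, plus strand, and ABCC4 at chr13:95301552-95301640, minus strand.
GSTP1: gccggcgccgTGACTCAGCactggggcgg
ME1: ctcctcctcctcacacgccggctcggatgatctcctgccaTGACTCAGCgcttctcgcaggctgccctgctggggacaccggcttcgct
PIR: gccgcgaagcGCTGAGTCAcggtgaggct
GCLM: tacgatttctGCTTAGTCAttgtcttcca
TXNRD1: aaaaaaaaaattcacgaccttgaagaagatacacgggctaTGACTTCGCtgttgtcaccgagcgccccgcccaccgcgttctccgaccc
GSTO1: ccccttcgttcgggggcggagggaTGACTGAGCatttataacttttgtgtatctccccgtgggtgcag
ABCC4: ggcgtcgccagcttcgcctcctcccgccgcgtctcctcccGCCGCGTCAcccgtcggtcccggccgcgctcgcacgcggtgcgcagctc
PIR, GCLM and ABCC4 carry the pattern on the opposite strand, so it reads there as its reverse complement. The element stands 66 bases before the start site in GSTP1, 34 in GCLM, 99 in TXNRD1, 137 in ME1, 226 in GSTO1 and 149 in ABCC4, and 27 bases after the start in PIR.

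None of the 32 compared members differed by 2-fold, and most of them were slightly lower in the YWHAB library. A difference is log2(FPKM + 1) of the YWHAB library less that of the vector library, 2-fold means at least 1 on this scale, and changes of weakly expressed genes come out too small on it. Of the 35 members 32 had a mean of at least 1 FPKM and were compared, and 3 (GPX2, CBR3 and SRXN1) did not. Among the 32, 0 were 2-fold lower and 0 were 2-fold higher, against 1.97% lower and 0.686% higher among all 13420 genes compared. The difference was below 0 for 24 of the 32, against 46.8% of all genes compared. The 95% counting interval of the ratio lay below equal levels for 16 members and above for 4, against 21.8% below and 27.8% above over all genes compared. These intervals are exact (Clopper-Pearson) and cover counting error only, so at this depth they exclude equality for many genes whatever the spread between cultures may be. The median over the members was -0.12, and over all genes compared it was 0.03. These are bulk libraries, in which fewer expressing cells and less RNA per cell cannot be told apart. Together the members took 0.487% of the fragments in the YWHAB library and 0.560% in the vector library.

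**Figure D1:**
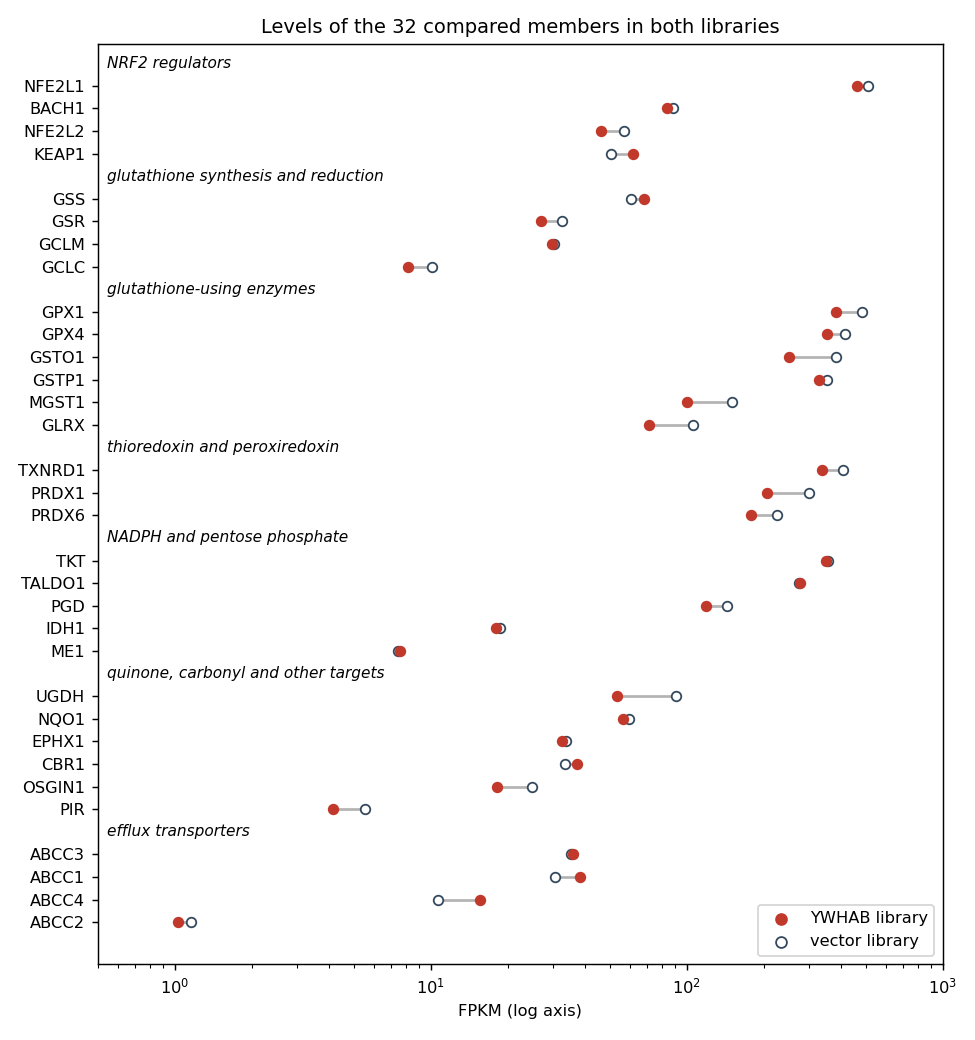
FPKM (log axis) of the 32 compared members in the YWHAB library (filled red) and the vector library (open), grouped by role, 1 library each. NFE2L1 is the highest member and ABCC2 the lowest in both, and the red points lie left of the open ones for the 6 glutathione-using enzymes and the 3 thioredoxin and peroxiredoxin genes.

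The regulators did not move together. NFE2L2 was at 46.1 FPKM in the YWHAB library and 57.0 FPKM in the vector library, from 847 and 937 fragments, a ratio of 0.810 (interval 0.737 to 0.890). KEAP1, the substrate adaptor that turns NRF2 over, was at 61.7 FPKM in the YWHAB library and 50.4 FPKM in the vector library, a ratio of 1.23 (1.11 to 1.35). KEAP1 was thus above NFE2L2 in the YWHAB library, where their FPKM ratio was 1.34, and below it in the vector library, where it was 0.884. NFE2L1 encodes the related factor NRF1, which drives proteasome genes. By FPKM it was the highest of the 35 members in both libraries, at 465 FPKM (YWHAB) and 511 FPKM (vector), a ratio of 0.910. FPKM divides by a length for each gene, so ranks between genes depend on that length. In fragments TXNRD1 was above NFE2L1 in both libraries, at 9376 (YWHAB) and 10178 (vector) against 9309 (YWHAB) and 9167 (vector). BACH1, a repressor of antioxidant response elements, was at 84.1 FPKM in the YWHAB library and 88.4 FPKM in the vector library, and its interval held equal levels. NFE2L2 lies on chromosome 2 from 177227595 to 177392697 and KEAP1 on chromosome 19 from 10486120 to 10503741 (GRCh38). AC019080.1 covers 17.6% of the exon bases of NFE2L2 on the same strand, and how many fragments fall there was not measured.

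Genes that make and recycle glutathione differed in both directions. The interval lay below equality for 2 of the 4 (21.8% of all genes compared) and above for 1 (27.8% of all). GCLC, the catalytic subunit of the rate-limiting glutamate-cysteine ligase, was at 8.15 FPKM in the YWHAB library and 10.1 FPKM in the vector library, a ratio of 0.805 (0.660 to 0.982). Its modifier subunit GCLM was at 29.7 FPKM (YWHAB) and 30.2 FPKM (vector), a ratio of 0.984 that held equality. GSS, which adds glycine in the last step, was higher, at 68.4 FPKM in the YWHAB library and 60.7 FPKM in the vector library, a ratio of 1.13 (1.04 to 1.23). GSR, which reduces oxidised glutathione with NADPH, was at 26.9 FPKM in the YWHAB library and 32.6 FPKM in the vector library, a ratio of 0.823. Summed over the 4 genes the level was 133 FPKM in the YWHAB library and 134 FPKM in the vector library.

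All 6 compared members of the group of glutathione-using enzymes were lower in the YWHAB library beyond counting error. Of the 7, GPX2 was not compared, and for the other 6 the interval lay below equal levels, against 21.8% of all genes compared. Their differences ran from -0.62 to -0.10, with a median of -0.45. GSTO1, a glutathione transferase with thioltransferase activity, was at 250 FPKM in the YWHAB library and 385 FPKM in the vector library, a ratio of 0.650 (0.619 to 0.683). It lies on chromosome 10 from 104235356 to 104267459, and 5.89% of all genes compared were as low. MGST1, a membrane-bound transferase and peroxidase, was at 100 FPKM (YWHAB) and 150 FPKM (vector). GLRX, glutaredoxin, which removes glutathione from proteins, was at 71.5 FPKM in the YWHAB library and 106 FPKM in the vector library. These 3 had ratios between 0.650 and 0.675, and the other 3 compared genes of the group had ratios nearer to equality. GPX1, the cytosolic selenium peroxidase, was at 383 FPKM (YWHAB) and 484 FPKM (vector), a ratio of 0.792. GPX4, which reduces lipid peroxides and guards against ferroptosis, was at 355 FPKM in the YWHAB library and 414 FPKM in the vector library, a ratio of 0.858. GSTP1, the main soluble transferase of many carcinomas, was at 329 FPKM (YWHAB) and 353 FPKM (vector), a ratio of 0.934 (0.890 to 0.980). The summed level of the group was 1489 FPKM in the YWHAB library and 1891 FPKM in the vector library. GPX2, an epithelial peroxidase, had 2 fragments in the YWHAB library and 0 in the vector library, both under the 3 fragments that a count of 0 allows. Of the 50-base words in GPX1 transcripts, 14.7% also occur in its pseudogene GPX1P1 or another gene elsewhere, so how fragments were shared there is uncertain.

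The measured thioredoxin and peroxiredoxin members were also lower. PRDX1, a cytosolic peroxidase recycled by thioredoxin, was at 206 FPKM in the YWHAB library and 301 FPKM in the vector library, a ratio of 0.686 (0.649 to 0.725). PRDX6, which uses glutathione rather than thioredoxin, was at 178 FPKM (YWHAB) and 225 FPKM (vector), a ratio of 0.794. TXNRD1, the NADPH-dependent reductase of cytosolic thioredoxin, was at 338 FPKM in the YWHAB library and 409 FPKM in the vector library, a ratio of 0.826 (0.803 to 0.849). All 3 intervals lay below equal levels, against 21.8% of all genes compared, and the median difference was -0.33. MMACHC overlaps 24.9% of the exon bases of PRDX1 on the opposite strand, and whether counting used strand is not stated. SRXN1, the sulfiredoxin that repairs over-oxidised peroxiredoxins and a well-known NRF2 target, was listed at 0 in both libraries. AL121758.1 covers 85.0% of its exon bases on the same strand and had 1 fragment in the YWHAB library and 0 in the vector library, so the 0 does not show that SRXN1 was silent.

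**Figure D2:**
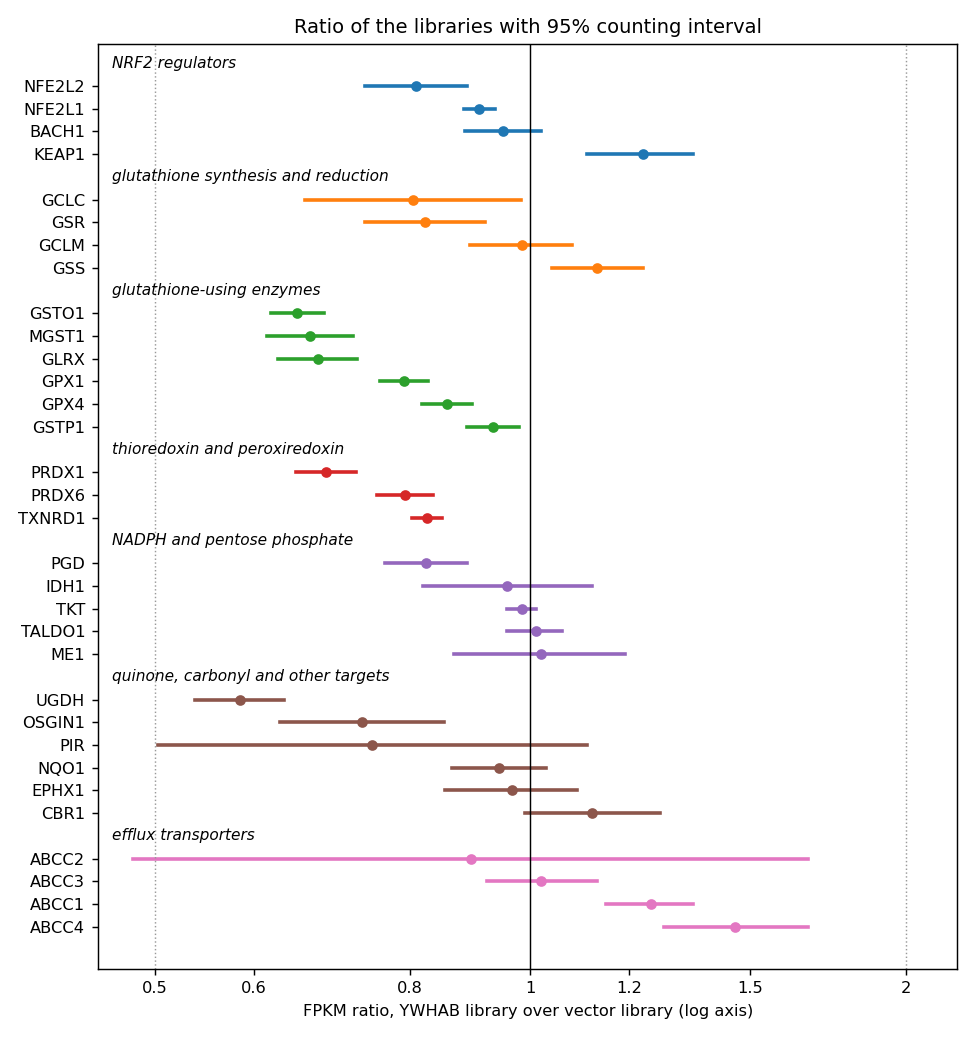
Ratio of FPKM, YWHAB library over vector library (log axis), for the 32 compared members; bars are exact 95% counting intervals, the solid line marks equal levels and the dotted lines 2-fold. All bars of the glutathione-using and thioredoxin groups lie left of equal levels, and those of ABCC1, ABCC4, KEAP1 and GSS lie right of it.

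The enzymes that supply NADPH and run the pentose phosphate pathway were near equal, apart from PGD. PGD, the second NADPH-producing enzyme of the pathway, was at 119 FPKM in the YWHAB library and 144 FPKM in the vector library, a ratio of 0.825 (0.764 to 0.890). TKT, a transketolase of the non-oxidative branch, was at 351 FPKM (YWHAB) and 357 FPKM (vector), with an interval of 0.957 to 1.01. TALDO1, the transaldolase beside it, was at 277 FPKM in the YWHAB library and 275 FPKM in the vector library, with an interval of 0.957 to 1.06. These 2 intervals are the narrowest around equality among the members, and they leave room for a shift of a few percent in counting terms. ME1, the cytosolic malic enzyme, was at 7.55 FPKM (YWHAB) and 7.43 FPKM (vector), and IDH1, the cytosolic isocitrate dehydrogenase, at 17.9 FPKM (YWHAB) and 18.7 FPKM (vector). The median difference of the 5 genes was -0.02, and it was 0.02 with both libraries rescaled to equal totals. PGD has a pseudogene, PGDP1, that holds 4.16% of its 50-base words.

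Among the quinone, carbonyl and conjugation enzymes, UGDH was the lowest member of all. UGDH, which makes UDP-glucuronate for glucuronidation and for hyaluronan, was at 53.3 FPKM in the YWHAB library and 91.1 FPKM in the vector library, from 937 and 1436 fragments. Its ratio was 0.585 (0.538 to 0.635) and its difference -0.76, and 3.79% of all genes compared were as low. The gene lies on chromosome 4 from 39498755 to 39528311, and UGDH-AS1 overlaps 7.24% of its exon bases on the opposite strand. OSGIN1, an oxidative stress-induced growth inhibitor, was at 18.1 FPKM in the YWHAB library and 24.8 FPKM in the vector library, a ratio of 0.733 (0.630 to 0.852), with 13.9% of its exon bases shared with AC009119.2 on the same strand. NQO1, the quinone reductase most often used as a readout of NRF2, was at 56.2 FPKM (YWHAB) and 59.5 FPKM (vector), and its interval of 0.865 to 1.03 held equal levels. CBR1, a carbonyl reductase, was at 37.4 FPKM (YWHAB) and 33.4 FPKM (vector), and EPHX1, the microsomal epoxide hydrolase, at 32.5 FPKM (YWHAB) and 33.6 FPKM (vector), both with intervals that held equality. PIR, an iron-binding nuclear protein, was low, with 50 fragments in the YWHAB library and 60 in the vector library, and its interval of 0.503 to 1.11 is wide. CBR3, a carbonyl reductase beside CBR1 on chromosome 21, had 7 fragments in the YWHAB library and 0 in the vector library, 2.09-fold over a floor of 3 fragments in the vector library, with an exact counting interval of the ratio that starts at 1.29. Its exon bases are covered over 42.2% by CBR3-AS1 on the opposite strand, so fragments of the pair cannot be told apart. Opposite-strand genes also cover 17.7% of NQO1 and 18.9% of CBR1.

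Of the 4 efflux transporters ABCC1 and ABCC4 were higher in the YWHAB library, and for ABCC2 and ABCC3 the interval held equality. ABCC4 (MRP4), which exports cyclic nucleotides, prostaglandins and conjugates, was the highest in ratio of the compared members, at 15.6 FPKM in the YWHAB library and 10.7 FPKM in the vector library, from 584 and 359 fragments, a ratio of 1.46 (1.28 to 1.67). Of all genes compared 7.34% were as high. It lies on chromosome 13 from 95019829 to 95301475. ABCC1 (MRP1), which exports glutathione conjugates, was at 38.3 FPKM in the YWHAB library and 30.7 FPKM in the vector library, a ratio of 1.25 (1.15 to 1.35). ABCC3 was at 36.1 FPKM (YWHAB) and 35.3 FPKM (vector), with an interval that held equality, and its sign turned under another scaling (on the median ratio of well-expressed genes) and after correction for length and GC content. ABCC2, the canalicular transporter, had 23 fragments in each library, and its interval of 0.480 to 1.67 could hide a large change. The median difference was 0.17 over the 4 transporters, and 0.09 after correction for length and GC content.

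Set side by side, the median differences were -0.45 for the genes that use glutathione, -0.33 for the thioredoxin and peroxiredoxin genes, -0.21 for the quinone, carbonyl and conjugation enzymes, -0.15 for glutathione synthesis and reduction, -0.10 for the NRF2 regulators, -0.02 for the NADPH genes and 0.17 for efflux. The groups hold 3 to 6 compared genes each, and no difference between them was tested. Length runs along the same order in part. The median length behind the FPKM values was 772 nt in the glutathione-using genes, 1119 nt in the thioredoxin genes, 1232 nt in the quinone and carbonyl group, 1696 nt in glutathione synthesis, 1352 nt in the regulators, 1394 nt in the NADPH genes and 2184 nt in the transporters. Over all protein-coding genes compared, split into 5 equal groups by length, the median difference was -0.06 in the shortest and 0.12 in the longest. Of the 32 members 26 lay below the median of their own length group, and the part of length in the order of the groups was not tested. After the trends on length and GC content were taken out, the medians were -0.36 for the genes that use glutathione, -0.29 for the thioredoxin genes, -0.14 for the quinone and carbonyl group, -0.15 for glutathione synthesis, -0.07 for the regulators, -0.04 for the NADPH genes and 0.09 for efflux. Among single genes GSTO1 was at -0.52, GLRX at -0.50, PRDX1 and MGST1 at -0.43, UGDH at -0.71, ABCC1 at 0.19 and ABCC4 at 0.46.

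**Figure D3:**
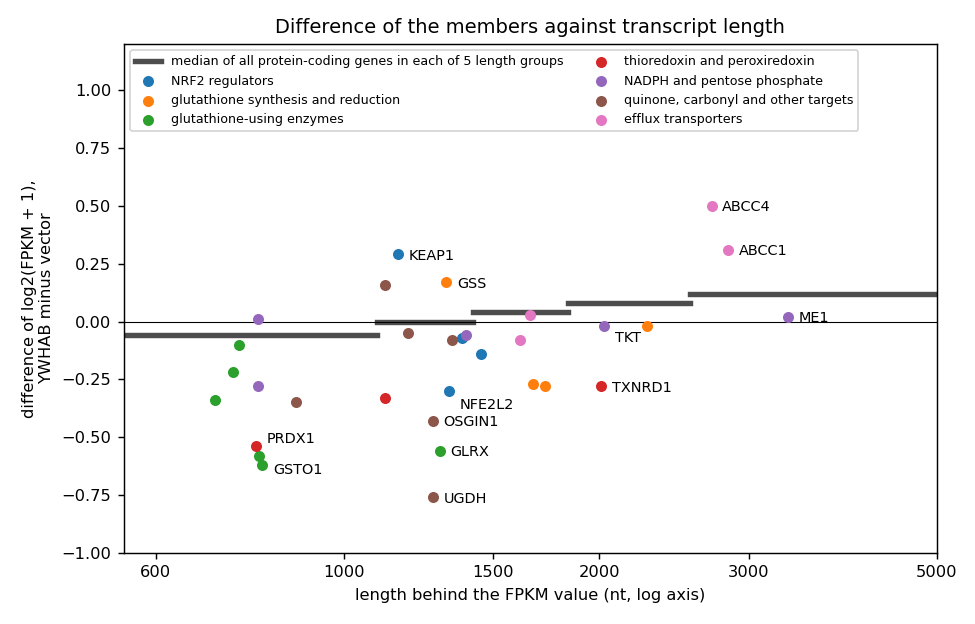
Difference of log2(FPKM + 1), YWHAB minus vector, against the length behind the FPKM value (log axis) for the 32 compared members, coloured by role; dark grey bars are medians of all protein-coding genes compared (and GPX1) in 5 equal length groups, cut at the edges of the plot. The bars climb from -0.06 in the shortest group to 0.12 in the longest, and 26 of the 32 points lie below the bar of their group.

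Members with and without the element letters in a promoter window overlapped in their differences. The median difference was -0.06 over the 13 compared members with TGACNNNGC, which ranged from -0.62 (GSTO1) to 0.50 (ABCC4), and -0.22 over the 13 compared members whose windows lack it, which ranged from -0.76 (UGDH) to 0.01. The members with TGACTCAGC, the stretches printed for GSTP1, ME1 and PIR, had differences of -0.10, 0.02 and -0.35. ME1 and GSTO1 both carry a match and differed by 0.02 and -0.62.

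Other genes of the same pathways showed larger differences than the members in some lists. Of 20 further NRF2 targets 17 were compared. Of these, 2 were 2-fold lower (1.97% of all genes compared) and 0 were 2-fold higher (0.686% of all). The interval lay below equality for 11 (21.8% of all) and above for 1 (27.8% of all), and the median was -0.40. FTL, the ferritin light chain, was at 2123 FPKM in the YWHAB library and 5080 FPKM in the vector library. The aldo-keto reductase AKR1C1 was at 4.09 FPKM (YWHAB) and 15.8 FPKM (vector) and AKR1C2 at 0.928 FPKM (YWHAB) and 2.78 FPKM (vector), both with close relatives that can share their reads. HMOX1, which breaks down heme, had 251 fragments in the YWHAB library and 448 in the vector library, a ratio of 0.502, while SLC7A11, the cystine importer that feeds glutathione synthesis, was at 9.08 FPKM (YWHAB) and 10.0 FPKM (vector), both named after their values were seen. The 1 target with an interval above equality was LRP8, a lipoprotein and selenoprotein P receptor that was likewise named afterwards, at 14.5 FPKM in the YWHAB library and 9.69 FPKM in the vector library. Of 13 further regulators compared, 6 were below 0 (46.8% of all genes compared) and 7 above, with a median of 0.04. The interval lay below equality for 3 (21.8% of all) and above for 3 (27.8% of all). SQSTM1, the autophagy receptor that binds KEAP1 and is itself an NRF2 target, had the largest difference of this list. It was at 360 FPKM in the YWHAB library and 677 FPKM in the vector library, a ratio of 0.532 (0.514 to 0.550). The kinase GSK3B, which marks NRF2 for degradation, was at 34.0 FPKM (YWHAB) and 27.2 FPKM (vector), and DDI2, the protease that activates NRF1, at 12.7 FPKM (YWHAB) and 15.2 FPKM (vector), with 15.3% of its exon bases shared with RSC1A1. MRNIP overlaps 22.0% of the exon bases of SQSTM1 on the opposite strand.

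The rest of the glutathione and thioredoxin lists had a median of -0.12 in each, as had all 32 compared members together. The matching member groups were lower, at -0.28 for glutathione synthesis and use combined and -0.33 for thioredoxin and peroxiredoxin. Of 29 other glutathione genes compared, 21 were below 0 (46.8% of all genes compared). The interval lay below equality for 10 (21.8% of all) and above for 4 (27.8% of all). In this list 0 were 2-fold lower (1.97% of all) and 0 were 2-fold higher (0.686% of all). MGST3, a relative of MGST1, was at 31.3 FPKM in the YWHAB library and 59.9 FPKM in the vector library, and the transferase GSTA4 at 2.64 FPKM (YWHAB) and 4.93 FPKM (vector). GSTZ1, a transferase of tyrosine breakdown, was higher, at 8.21 FPKM (YWHAB) and 4.82 FPKM (vector). Of 18 other thioredoxin genes 12 were below 0 (46.8% of all genes compared). The interval lay below equality for 7 (21.8% of all) and above for 1 (27.8% of all). Of the 18, 1 passed 2-fold, on the lower side (1.97% of all genes compared). That gene was SESN2, a stress-induced sestrin, at 4.10 FPKM in the YWHAB library and 11.4 FPKM in the vector library, and SESN3 was at 1.36 FPKM (YWHAB) and 2.78 FPKM (vector) and SESN1 at 1.54 FPKM (YWHAB) and 2.35 FPKM (vector). Of the peroxiredoxins outside the members, named after their values were seen, PRDX5 was at 198 FPKM (YWHAB) and 261 FPKM (vector), PRDX3 at 115 FPKM (YWHAB) and 133 FPKM (vector), PRDX4 at 157 FPKM (YWHAB) and 173 FPKM (vector) and PRDX2 at 103 FPKM (YWHAB) and 98.4 FPKM (vector). Thioredoxin itself, TXN, which also counts among the further NRF2 targets and was named afterwards, was at 404 FPKM in the YWHAB library and 402 FPKM in the vector library.

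Of 17 other NADPH genes compared the interval lay above equality for 5, near the 27.8% of all genes compared, and below for 1, against 21.8% of all genes, and the median was 0.11. H6PD, which makes NADPH in the endoplasmic reticulum, was at 14.7 FPKM (YWHAB) and 10.2 FPKM (vector), the folate enzyme MTHFD1 at 61.3 FPKM (YWHAB) and 48.7 FPKM (vector), and NADK, which makes NADP, at 66.8 FPKM (YWHAB) and 54.6 FPKM (vector). Of 5 other efflux genes compared, ABCC5, a nucleotide exporter, was at 16.5 FPKM (YWHAB) and 11.5 FPKM (vector), while SLC47A1 at 2.93 FPKM (YWHAB) and 2.14 FPKM (vector) and ABCC6 at 0.889 FPKM (YWHAB) and 1.27 FPKM (vector) had intervals that held equality. The multidrug pump ABCB1, named afterwards, was listed at 0 in both libraries.

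**Figure D4:**
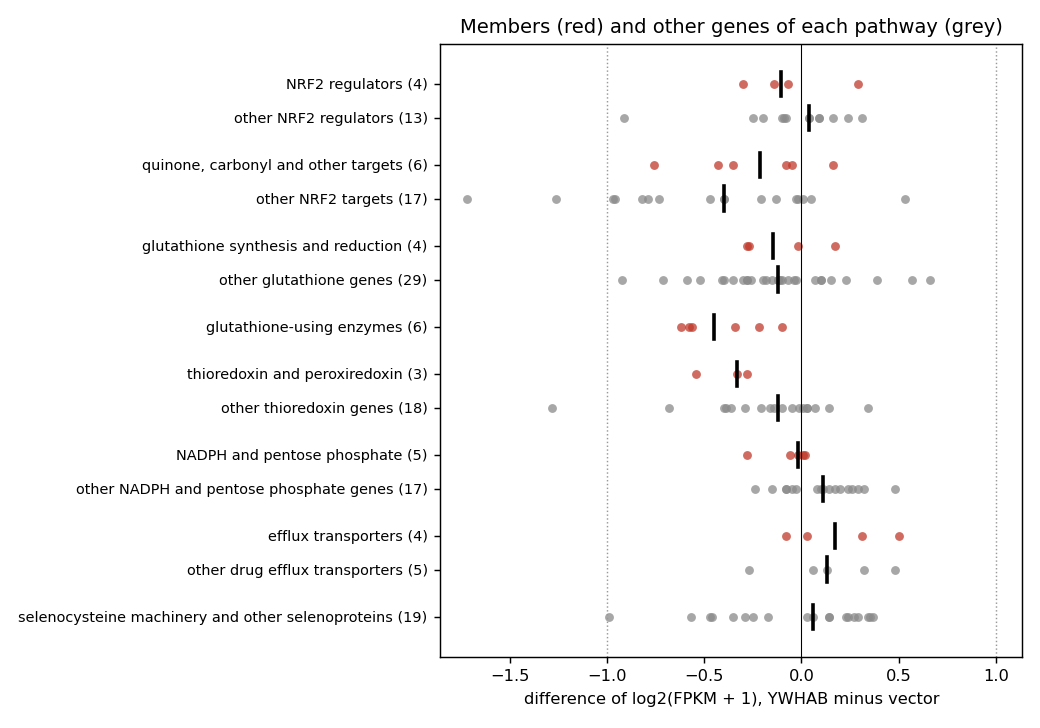
Difference of log2(FPKM + 1), YWHAB minus vector, for each compared member (red) and each other compared gene of the pathway lists (grey), with the number of genes in brackets, black bars for medians and dotted lines for 2-fold. The glutathione-using members all lie below 0, and among the grey lists the other NRF2 targets reach furthest down, with a median of -0.40.

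GPX1, GPX4, TXNRD1 and GPX2 are selenoproteins, in which selenocysteine is inserted at a UGA codon. The 3 of them that were compared were lower, with differences of -0.34, -0.22 and -0.28. Of 14 other selenoproteins compared, the interval lay below equality for 7 and above for 4, against 21.8% and 27.8% of all genes compared, and the median was -0.21. SELENOM was at 39.0 FPKM in the YWHAB library and 78.3 FPKM in the vector library, SELENOK at 46.0 FPKM (YWHAB) and 68.6 FPKM (vector), and SELENOT at 43.8 FPKM (YWHAB) and 60.9 FPKM (vector). The 5 genes of the insertion machinery, split from the list after their values were seen, had differences from 0.06 to 0.37. All 5 were above 0, while 46.8% of all genes compared were below 0. The interval lay above equality for 2 of the 5 (27.8% of all genes compared) and below for 0 (21.8% of all). Among them EEFSEC, the selenocysteine elongation factor, was at 11.6 FPKM in the YWHAB library and 8.72 FPKM in the vector library. The median length was 1085 nt in the selenoproteins and 1771 nt in the machinery genes, and the part of length in this contrast was not tested. RUVBL1 overlaps 15.3% of the exon bases of EEFSEC on the opposite strand.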

How the data were processed

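RNA from 1 YWHAB and 1 vector library of MDA-MB-231 cells was compared. The authors deposited 1 FPKM value per Ensembl gene and library. Alignment with HISAT2 2.0.5 and the build hg38 are named per the submitters' processing notes. Counter, annotation, strand setting and treatment of multiply mapped reads were not given in those sources, so overlapping genes and near-identical copies are uncertain. Symbols came from GENCODE 29, which held 96.3% of identifiers.

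Fragments were worked out from the FPKM steps. For 26769 of 26770 genes above 0 the values were whole counts over whole lengths within a relative tolerance of 1e-12. For 14.1% of genes the length was a multiple chosen nearest to the GENCODE mean, which sets interval widths (BACH1, GCLC, CBR1 and EPHX1 among the members) but not ratios. The recovery was tested on simulated data. The pseudocount was 1, genes averaging 1 FPKM or more over both libraries were compared (13420), and a count of 0 allows 3 fragments, or 0.217 FPKM (YWHAB) and 0.242 FPKM (vector) for a gene of 1 kb. PCR copies are not independent molecules.

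The members and lists were chosen with earlier results of these data known. All members are accounted for, and up to 3 compared genes per other list, those with the largest absolute difference, are named, with any others marked. Python 3.11.15, numpy 2.4.6, pandas 2.3.3 and scipy 1.17.1 were used, and 6 alternatives were tried. The values of 1 further gene are not reported here.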

Additional observations from a re-analysis of the deposited data

How the results depend on the processing

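No paired analysis was possible because each group has 1 library and no test was run. Under the 6 alternatives (pseudocount 0.1, no filter, a minimum mean of 5 FPKM, equal totals, scaling on the median ratio of genes from 10 FPKM up, and correction for length and GC content) 0 members were 2-fold lower and 0 were 2-fold higher, and the median of the members lay between -0.16 and -0.08, and that median less the median of all genes between -0.17 and -0.08. Over all genes, 265 were 2-fold lower and 92 higher, against 471 and 222 with a pseudocount of 0.1, 349 and 155 with no filter and 112 and 40 with the minimum of 5 FPKM. With no filter the median of the glutathione-using genes was -0.34, since GPX2 enters. That of the quinone and carbonyl group was -0.08 with no filter, as CBR3 enters, against -0.21 in the main comparison. With the minimum of 5 FPKM that group was also at -0.08, without PIR, and efflux at 0.31, without ABCC2. Rescaling to equal totals turned the NADPH median to 0.02. Single signs turned for GCLM and TKT with equal totals, for TALDO1, ME1 and ABCC3 with scaling on the median ratio, and for ME1 and ABCC3 after length and GC correction. The difference left its own counting interval for 1 member with equal totals and 3 with scaling on the median ratio. After length and GC correction it did so for 7 members (GSTO1, MGST1, PRDX1, PRDX6, TALDO1, TKT and ABCC1). Without replicates, depth limits what can be said of GPX2, CBR3, PIR and ABCC2.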
